A study of Mus musculus with 6 samples.

Results

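The genes described here are 41 transcription factor and cofactor genes that pattern the embryonic forebrain. They were taken from a list of names chosen, like the groups below, with earlier results of these data known. Every peak whose annotated gene is one of them was collected from 5 lists of E2A binding sites. Of 91185 peaks in the 5 lists, 450 were annotated to these genes, and merging overlapping peaks left 159 regions of 32693. Most of the genes encode homeobox factors, but the Zic genes encode zinc-finger factors and Ldb1 a cofactor of LIM-domain factors, so the list is wider than a homeobox family. The genes were divided by their known roles into 11 dorsal, 11 ventral and 9 eye or midline genes. The remaining 10 factors or cofactors are called broad here, though their expression was not measured. The dorsal group also takes in factors of the cortical hem, the head organiser and the boundary of midbrain and hindbrain.

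E2A was mapped by ChIP-seq, sequencing of DNA precipitated with an antibody against E2A, in cultured neural stem cells of E12.5 mouse embryos (C57BL/6J). All cultures proliferated in Neurobasal-A with B-27 lacking vitamin A, FGF-2 and EGF, and received no other treatment. Lists came from 3 wild-type libraries (wt replicates 1, 2 and 3), 1 library of cells with the E12 knockout (E12KO) and 1 of cells with the E47 knockout (E47KO). The input library of wild-type cells was not analysed here. Neither the origin of the wt samples, as separate cultures or not, nor the making of the knockout alleles is given in the labels. The lists held 6814, 12772 and 24194 peaks in wt replicates 1 to 3, 25229 in E12KO and 22176 in E47KO, and read depth is not known from them. Peak lists hold no expression values, so neither the cell type nor the loss of E12 or E47 could be checked.

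E2A is the product of Tcf3, spliced into the E12 and E47 proteins, which differ in their basic helix-loop-helix domain. E proteins pair with one another or with tissue-restricted helix-loop-helix factors and bind E-boxes, short sites that read CANNTG. In the forebrain, homeobox factors divide the neural tube into domains: Emx, Otx, Pax6 and LIM-homeobox genes act on the dorsal side, which forms the cortex, while Gsx, Dlx, Nkx and other LIM-homeobox genes act on the ventral side, which forms the basal ganglia and many interneurons. Six3, Six6, Rax and the Vax genes shape the eye field and ventral midline, and the Zic genes the dorsal midline.

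The promoters that follow show the sequence at some members whose promoter region was shared by most or all lists. Beside them are members whose promoter holds CAGCTG and had no promoter peak. They were picked for these traits, so they are not a comparison of bound with unbound promoters. Cux1, Meis2 and Zic5 had a promoter peak in all 5 lists, and Lhx2 in 4. Lhx6 and Isl1 were the members with CAGCTG, one form of the E-box, in a promoter of the table, and neither had a promoter peak in any list. Each run is the 250 bases before a RefSeq start (GRCm38.p6), 5′ to 3′ on the gene's strand, with E-boxes in capitals. They lie at chr5:136565982-136566231 (Cux1, minus strand), chr2:116064620-116064869 (Meis2, minus), chr14:122465659-122465908 (Zic5, minus), chr2:38351058-38351307 (Lhx2, plus, the second of 2 starts), chr2:36105409-36105658 (Lhx6, minus, the third of 3 starts) and chr13:116309689-116309938 (Isl1, minus).
Cux1: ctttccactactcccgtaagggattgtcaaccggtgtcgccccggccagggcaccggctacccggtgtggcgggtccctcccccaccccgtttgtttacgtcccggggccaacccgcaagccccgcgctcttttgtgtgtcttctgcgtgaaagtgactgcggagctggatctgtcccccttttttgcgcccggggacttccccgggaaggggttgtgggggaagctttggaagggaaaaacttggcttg
Meis2: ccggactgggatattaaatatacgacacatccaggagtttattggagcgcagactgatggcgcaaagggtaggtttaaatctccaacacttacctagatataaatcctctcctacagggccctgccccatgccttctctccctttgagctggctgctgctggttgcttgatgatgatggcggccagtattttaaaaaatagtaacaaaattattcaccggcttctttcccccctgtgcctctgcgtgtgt
Zic5: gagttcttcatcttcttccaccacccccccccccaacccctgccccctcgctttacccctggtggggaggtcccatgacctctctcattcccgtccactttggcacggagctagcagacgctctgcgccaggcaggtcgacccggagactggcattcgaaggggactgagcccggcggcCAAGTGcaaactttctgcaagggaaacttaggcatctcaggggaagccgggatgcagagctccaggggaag
Lhx2: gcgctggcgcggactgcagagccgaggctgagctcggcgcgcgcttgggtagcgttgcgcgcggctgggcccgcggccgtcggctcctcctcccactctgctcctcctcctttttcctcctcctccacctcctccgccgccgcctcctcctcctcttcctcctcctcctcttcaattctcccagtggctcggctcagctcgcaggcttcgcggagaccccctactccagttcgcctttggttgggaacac
Lhx6: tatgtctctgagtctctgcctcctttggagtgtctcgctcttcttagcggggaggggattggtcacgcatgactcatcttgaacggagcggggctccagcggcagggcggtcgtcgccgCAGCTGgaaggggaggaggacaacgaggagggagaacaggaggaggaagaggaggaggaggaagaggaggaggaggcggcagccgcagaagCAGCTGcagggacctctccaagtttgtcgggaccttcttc
Isl1: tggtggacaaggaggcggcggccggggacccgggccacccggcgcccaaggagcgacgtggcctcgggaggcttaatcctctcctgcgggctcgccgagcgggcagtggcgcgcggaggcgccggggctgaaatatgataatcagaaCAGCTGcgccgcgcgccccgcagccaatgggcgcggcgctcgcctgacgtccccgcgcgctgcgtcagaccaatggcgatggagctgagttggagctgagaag

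The Cux1, Meis2 and Lhx2 runs are lower case throughout, because no E-box was found in them. With the 50 bases after the start included, this Lhx2 promoter held 1, and those of Cux1 and Meis2 still held none. Zic5 held 1 E-box, CAAGTG, Isl1 held 1 and Lhx6 held 2. Of members not shown, Ldb1 had promoter peaks in 4 lists, but at separate regions. The region at chr19:46113984-46114497 was in wt replicate 1 only, and that at chr19:46118708-46120585 in wt replicate 3 and both knockouts. Ldb1 held 1 E-box in the run at chr19:46037071-46037320 and none before its other starts. Zeb2, with promoter peaks in 3 lists, held none before any start. The peaks are in mm9 coordinates, so these RefSeq starts were not matched to the annotated starts, except at Lhx2, where the 2 starts lie 12027 bp apart in both sources and the shared peaks lie at the second. No match says only that these letters are absent from this window.

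Across the table, 31 of the 41 members had a promoter sequence, 44 sequences in all, since some genes have several starts. Over the whole window, 250 bases before to 50 after the start, 24 of the 44 (54.5%) held CANNTG, against 72.3% of all 32851 promoters of the same length. CAGCTG was found in 2 (4.55%, against 16.3%), and CAGGTG, or CACCTG on the other strand, in 5 (11.4%, against 20.2%). CANNTG counts include both of the other motifs. The median GC content was 58.5% for members and 52.7% for all promoters, and its part in the motif shares was not tested. These shares are descriptions, because starts of 1 gene can overlap and genes are not replicates.

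E2A peaks were annotated to 33 of the 41 members in at least 1 list (80.5%), against 52.1% of 21900 protein-coding genes. Because members were chosen with earlier results of these data known, this share and those below are descriptions only. In wt replicate 1, 20 members had a peak (17.5% of protein-coding genes did), in wt replicate 2 24 (27.8%), in wt replicate 3 31 (42.8%), in E12KO 28 (45.1%) and in E47KO 28 (40.7%). The members' peaks numbered 34, 63, 118, 124 and 111 in that order, and their share of each list ran only from 0.488% to 0.501%. The spread in peak number between lists thus followed list length. Peaks were annotated to 14 members in each of the 5 lists (34.1%), against 13.7% of protein-coding genes. Those 14 were Otx1, Pax6 and Lmx1a of the dorsal genes, Dlx2, Gsx1, Gsx2 and Nkx6-2 of the ventral genes, Zic5 of the eye or midline genes, and Meis1, Meis2, Cux1, Zeb1, Zeb2 and Pou3f1 of the broad genes.

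Members with no peak at all were found in 3 of the 4 groups. All 10 broad or cofactor genes and 10 of 11 dorsal genes had a peak in some list, as did 7 of 9 eye or midline genes and 6 of 11 ventral genes. The ventral share, 54.5%, was near the 52.1% of all protein-coding genes, and those of the other groups, from 77.8% to 100%, were above it. The dorsal gene without one was Emx1, a cortical progenitor factor. The ventral genes without one were Dlx1, Dlx5 and Dlx6, which act with Dlx2 in interneuron precursors, and Nkx2-1 and Lhx6, which specify interneurons of the medial ganglionic eminence. Six6 and Vax2, both eye factors, also had none. Of 45 other homeobox and partner genes, 37 had a peak (82.2%). Groups of 9 to 11 genes are small, and no test between them was made.

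**Figure D1:**
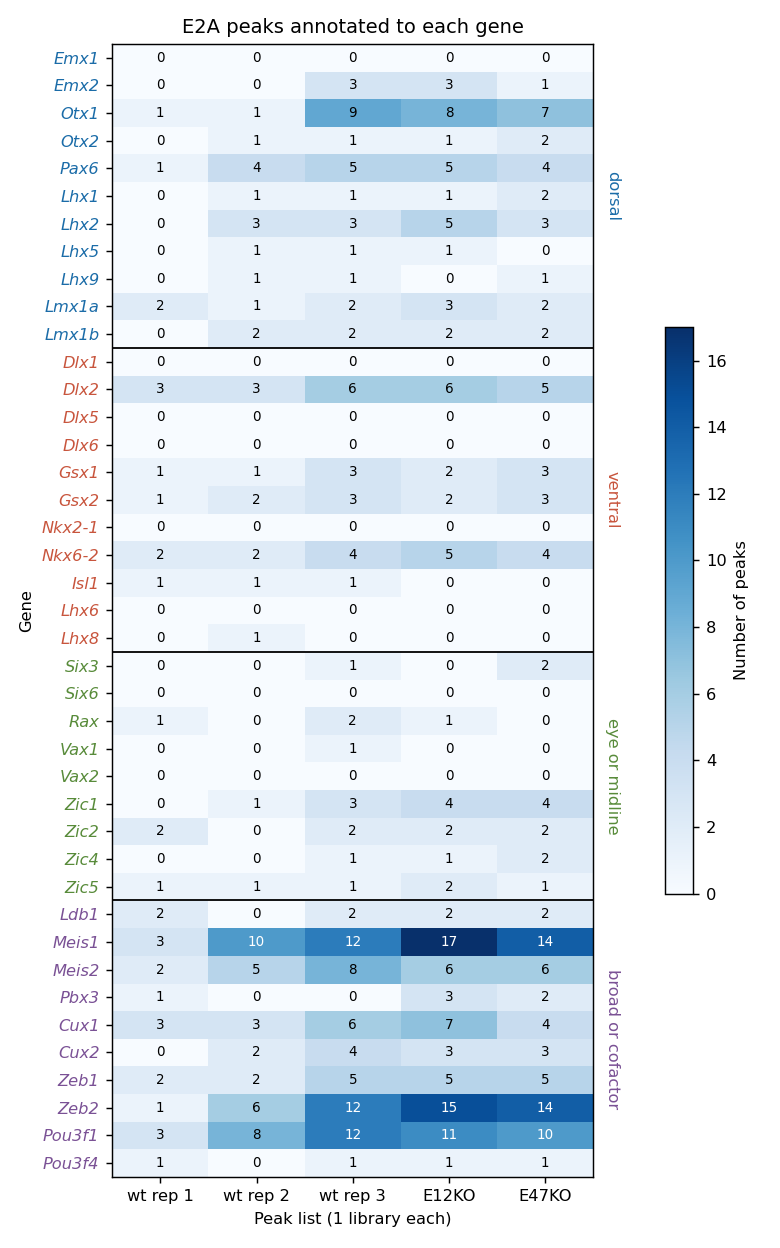
Number of E2A peaks annotated to each of the 41 genes (rows, by group) in each of the 5 lists (columns, 1 library each); darker cells hold more peaks. Of the rows, 8 are 0 in every list, 5 of them ventral, and Meis1, Zeb2 and Pou3f1 hold the most peaks.

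Annotation assigns each peak to 1 gene only, so the neighbours of the members without a peak were counted too. Dlx1 lies between Dlx2, which had 3, 3, 6, 6 and 5 peaks in wt replicates 1 to 3, E12KO and E47KO, and Metap1d, which had 0, 1, 1, 1 and 1. Dlx5 and Dlx6 are neighbours and both stood at 0, while Sdhaf3, beyond Dlx5, had 2, 2, 1, 1 and 1 peaks and Sem1, beyond Dlx6, had 0, 1, 1, 1 and 1. Dlx6os1, transcribed from the strand opposite Dlx6, had 1 peak in wt replicate 3, E12KO and E47KO each, 82279 bp from its start in wt replicate 3 (chr6:6729063-6729369). The genes on both sides of Lhx6, Six6 and Vax2 had 0 peaks in every list as well. Emx1 lies between Sfxn5, with 0, 2, 4, 4 and 4 peaks, and Spr, with 0, 0, 1, 1 and 1. Nkx2-1 lies between Mbip, with 0, 1, 1, 1 and 1, and Nkx2-9, with 0 in every list.

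A consensus region of the wt lists was defined as a merged region found in at least 2 of the 3 wt lists. At any distance from the start site, 25 of 41 members had one (61.0%), against 27.6% of protein-coding genes. Dorsal genes had one at 9 of 11, broad genes at 8 of 10, ventral genes at 5 of 11 and eye or midline genes at 3 of 9. With Otx1, Otx2, Lhx1 and Lmx1b taken out of the dorsal group, 5 of 7 dorsal genes had one. Of the 45 other homeobox and partner genes, 24 had one (53.3%). Within 10 kb of the start site the member count was 11 (26.8%), against 16.7% of protein-coding genes, with 4 broad, 3 dorsal, 3 eye or midline and 1 ventral gene, and the other homeobox and partner genes were above the members with 15 of 45 (33.3%). At the promoter it was 7 (17.1%), against 11.9%, namely Otx1, Lhx2, Zic2, Zic5, Meis2, Cux1 and Zeb1, and no ventral gene was among them. The other homeobox and partner genes again had a higher share there, 12 of 45 (26.7%). Regions in all 3 wt lists were found at 13 members, 6 broad, 4 ventral, 2 dorsal and 1 eye or midline, so the order of the groups changed under that rule. Leaving out a wt list, with both others required, gave 13 members at any distance without wt replicate 3, with 2 dorsal and 1 eye or midline gene, and 3 dorsal genes without wt replicate 2. The count within 10 kb was 7 without wt replicate 1 and 4 without wt replicate 3. Shares of protein-coding genes under these stricter rules are not given here, so these counts and the group order have no background beside them. As regions, 13.8% of those of members were in all 3 wt lists, against 12.9% of other regions.

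**Figure D2:**
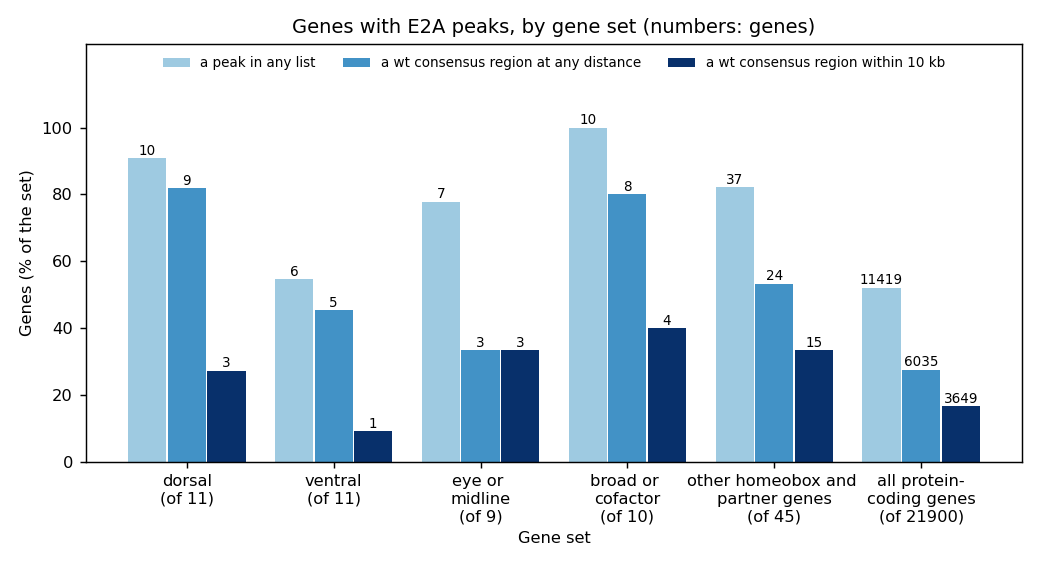
Share of genes in each set (vertical axis, %) with a peak in any list, a wt consensus region at any distance and a wt consensus region within 10 kb; numbers above the bars are genes. Dorsal and broad genes reach 9 of 11 and 8 of 10 at any distance, and all sets except the eye or midline genes fall within 10 kb, where 1 ventral gene is left.

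Most member regions lay far from the start site. The 60 member wt consensus regions had a median distance of 50.6 kb, against 20.9 kb for the other 12262. Meis1, Zeb2 and Pou3f1 held 19 of the 60, so these 3 genes weigh on the pooled values. Among the 60, 13 (21.7%) were within 10 kb, against 38.3%, and 30 (50%) lay beyond 50 kb, against 31.3%. By annotated feature, 28 were intergenic (46.7%, against 35.6%), 18 intronic (30.0%, against 35.1%) and 8 at promoters (13.3%, against 22.4%). The median distance was 47.1 kb for 15 dorsal, 36.7 kb for 9 ventral, 84.8 kb for 33 broad and 0.29 kb for 3 eye or midline regions. Distances were measured to the nearest annotated start, so the gene on which a distal region acts is not known from them.

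**Figure D3:**
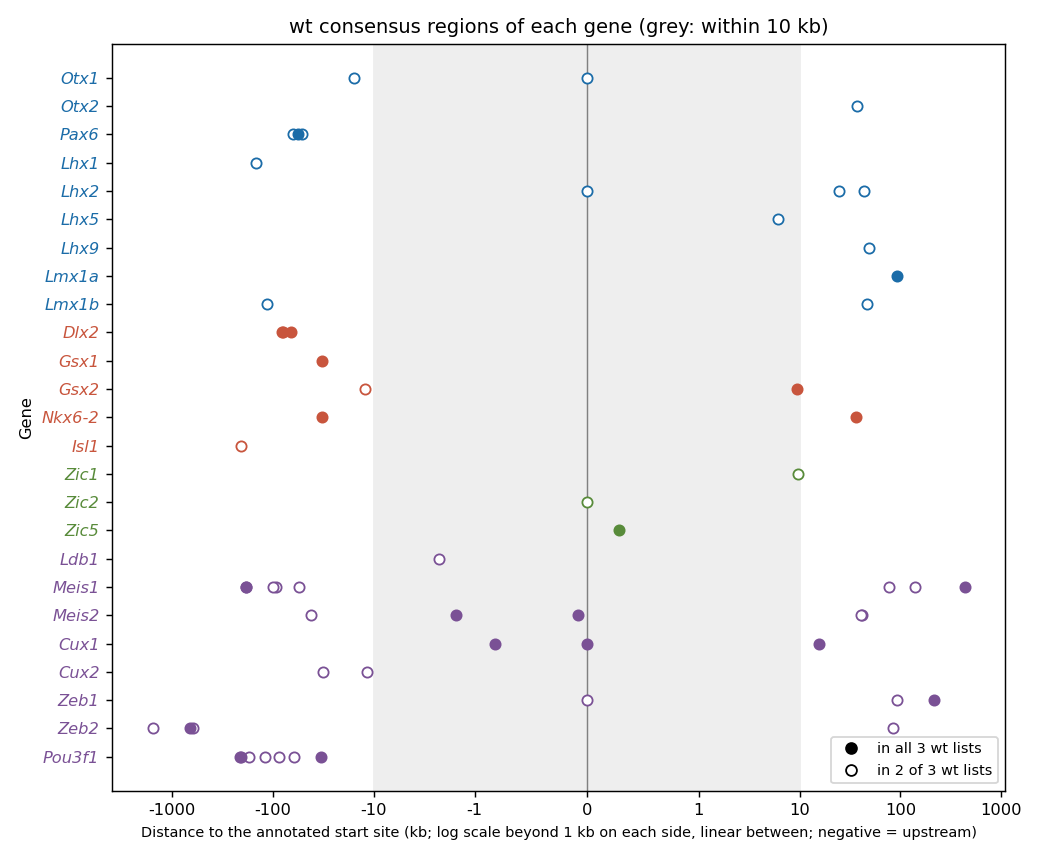
Distance of each wt consensus region (points) from the annotated start site of its gene (horizontal axis, kb, log scale beyond 1 kb on each side, negative = upstream) for the 25 genes with one; filled points are in all 3 wt lists, and grey marks the 10 kb window. The 3 Zic genes lie inside the window, and Dlx2, Pax6 and Pou3f1 only outside it.

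Among the dorsal genes, Pax6, a paired-box homeobox factor of cortical progenitors and the eye, had 1, 4, 5, 5 and 4 peaks in wt replicates 1 to 3, E12KO and E47KO. Of its 6 regions, 4 lay within 12.7 kb of one another, 51.9 to 63.7 kb upstream and inside introns of Pax6os1, the opposite-strand transcript. The region at chr2:105451865-105453029 was in all 5 lists, with 11.7-fold enrichment in wt replicate 1, the only list that scores its peaks. Its neighbours at chr2:105444447-105445470 and chr2:105456261-105457177 were in every list but wt replicate 1. The Pax6 promoter region (chr2:105514661-105516877) was in wt replicate 3 and E12KO only. Pax6 binding was therefore listed at a distal cluster in every library and at the promoter in 2.

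Otx1, an early forebrain and midbrain factor, had 1, 1, 9, 8 and 7 peaks, a jump between the shorter and the longer lists. Of its 8 regions, 7 fell within 21.5 kb over the gene and the adjoining introns of Ehbp1. The promoter region (chr11:21901395-21902400) was in wt replicates 1 and 3 and both knockouts, with 6.18-fold enrichment in wt replicate 1. Otx2, its paralogue, had 0, 1, 1, 1 and 2 peaks. The region 37.2 kb from its start (chr14:49244411-49245454) was in every list but wt replicate 1, and its promoter had a peak in E47KO alone. Peaks annotated to Otx2os1, on the opposite strand, numbered 0, 1, 2, 2 and 1. Emx2, a cortical area factor, had 0, 0, 3, 3 and 1 peaks and no wt consensus region. Its promoter region (chr19:59531750-59533390) was in wt replicate 3 and E12KO.

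Of the LIM-homeobox genes of the dorsal group, Lmx1a alone had a peak in wt replicate 1. Lhx2, which specifies cortical identity, had 0, 3, 3, 5 and 3 peaks. Its promoter region at the second start (chr2:38206155-38208266) and the regions 24.4 and 43.6 kb downstream were each in every list but wt replicate 1, and a peak at the first start was in E12KO alone. Lmx1a, a roof plate and cortical hem factor, had 2, 1, 2, 3 and 2 peaks, with an intronic region (chr1:169711779-169712557, 6.77-fold) in all 5 lists. Lmx1b, which acts at the boundary of midbrain and hindbrain, had 0, 2, 2, 2 and 2, one region in its own intron 2 and one in Mvb12b. Lhx1, Lhx5 and Lhx9 each had 1 wt consensus region, none of them in wt replicate 1. That of Lhx1 lay 146 kb upstream and was in both knockouts, that of Lhx5 in intron 4 was missing in E47KO, and that of Lhx9, 49.2 kb downstream, was missing in E12KO.

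All but 3 of the 21 ventral regions belonged to 4 genes. Dlx2, a homeobox factor of interneuron and striatal precursors, had the strongest member peak by q value in wt replicate 1, 18.6-fold at chr2:71450500-71451099. The merged region there (chr2:71450011-71451331, 65.4 kb upstream) and regions at chr2:71463299-71464212 (11.6-fold) and chr2:71466659-71468583 (8.24-fold) were in all 5 lists. A peak at the Dlx2 promoter was in wt replicate 3 and E47KO only. Distal regions of Dlx2 were thus shared by every library, and its promoter by 2.

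Nkx6-2, a homeobox factor of ventral progenitors and oligodendrocytes, had 2, 2, 4, 5 and 4 peaks. Both regions in all 5 lists were distal: chr7:146801230-146802606, 32.6 kb upstream in a 5′ UTR of another transcript (13.8-fold), and chr7:146730746-146732023, 36.7 kb downstream in an intron of Inpp5a (8.50-fold). Another, at chr7:146892440-146892897, was in both knockouts and no wt list. Gsx1 and Gsx2, the progenitor factors that act upstream of Dlx genes, had 1, 1, 3, 2 and 3 and 1, 2, 3, 2 and 3 peaks. Each had 1 region in all 5 lists, for Gsx1 32.7 kb upstream (chr5:147966902-147967656, 8.12-fold) and for Gsx2 9.43 kb downstream (chr5:75481051-75481691, 10.1-fold). The Gsx1 promoter had a peak in wt replicate 3 and E47KO.

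Isl1, a LIM-homeobox factor of striatal and cholinergic neurons, had 1, 1, 1, 0 and 0 peaks. Its wt consensus region (chr13:117305068-117305515, 205 kb upstream, 7.11-fold) was in wt replicates 1 and 3, and was the only one of the 60 that neither knockout list held. Wt replicate 2 lacked it as well, so 1 of 3 wt lists was without it as the knockouts were. Lhx8, a factor of cholinergic neurons, had a single peak, in wt replicate 2.

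Eye and midline genes had 4, 2, 11, 10 and 11 peaks in all. Zic2, mutated in forebrain midline defects, had 2, 0, 2, 2 and 2 peaks, and its promoter peak in wt replicate 1 (chr14:122874054-122874842, 19.8-fold) had the highest fold enrichment of the 34 member peaks. The merged promoter region (chr14:122872896-122875189) was nonetheless absent from wt replicate 2. Zic5, its neighbour, had 1, 1, 1, 2 and 1 peaks, all in a promoter region in all 5 lists (chr14:122861026-122865211) at only 5.34-fold. Zic1 had 0, 1, 3, 4 and 4 peaks, with a consensus region 9.72 kb downstream that every list but wt replicate 1 held. Its neighbour Zic4 had 0, 0, 1, 1 and 2. Six3, which sets anterior forebrain identity, had 0, 0, 1, 0 and 2 peaks in 3 regions of 1 list each. Rax, the eye-field factor, had 1, 0, 2, 1 and 0 peaks, and Vax1, of the optic stalk, 1 peak in wt replicate 3. None of these last 4 genes had a wt consensus region. Of the 18 eye or midline regions, 10 were in 1 list only and 1 was in all 5.

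Broad factors and cofactors held 85 of the 159 regions. Meis1 and Zeb2 had 19 regions each and Pou3f1 14, so that 3 genes held 52 regions, and the median over the 33 members with a peak was 3, against 2 over all protein-coding genes with a peak. Meis1, a TALE homeobox partner of Hox and Pbx factors, had 3, 10, 12, 17 and 14 peaks. Its regions 185 kb upstream (chr11:19103587-19105157, 10.4-fold) and 436 kb downstream (chr11:18480818-18482962, 6.10-fold for its stronger peak) were in all 5 lists, and its promoter in wt replicate 3 and E12KO only. Meis2, its paralogue, had 2, 5, 8, 6 and 6 peaks, and differed from Meis1 in having both regions of all 5 lists at the start: the promoter (chr2:115890867-115892098, 16.7-fold) and a region 1.53 kb upstream (chr2:115892319-115893845, 16.5-fold).

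Zeb2, a zinc-finger homeobox repressor that itself binds E-box-like sites, had 1, 6, 12, 15 and 14 peaks. Its 1 region in all 5 lists lay 659 kb upstream (chr2:45631879-45632920, 15.0-fold), and another consensus region lay 1549 kb upstream, the farthest of the 60. Zeb1, its paralogue, had 2, 2, 5, 5 and 5 peaks, with a promoter region in wt replicates 1 and 3 and both knockouts (8.90-fold) and a region 215 kb downstream in all 5 lists (7.11-fold). Pou3f1, a POU factor best known from Schwann cells, had 3, 8, 12, 11 and 10 peaks, and its 3 regions in all 5 lists lay 32.9, 206 and 211 kb upstream. Its promoter region (chr4:124333838-124334817) was in wt replicate 3 and both knockouts. Pou3f4, a POU factor of the developing striatum and inner ear, had 1, 0, 1, 1 and 1 peaks in 2 regions, neither of them a consensus region.

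Cux1, a cut-homeobox factor, had 3, 3, 6, 7 and 4 peaks and 3 regions in all 5 lists. They were a promoter over a start site (chr5:137041702-137044094, 5.76-fold), a second annotated promoter 0.821 kb from its start (chr5:136779212-136779749, 7.12-fold) and an intronic region (chr5:136832796-136833637, 7.65-fold). Cux2, its paralogue in upper-layer neurons, had 0, 2, 4, 3 and 3 peaks and 2 consensus regions, at 11.7 and 31.9 kb. Pbx3, a TALE partner of Meis factors, had 1, 0, 0, 3 and 2 peaks and no consensus region, and 1 of its regions was in both knockouts and no wt list. Ldb1, the cofactor that links LIM-homeobox factors, had 2, 0, 2, 2 and 2 peaks. Its consensus region (chr19:46116340-46117241, 6.80-fold) was in wt replicates 1 and 3 and both knockouts. It lay in an intron of Ldb1, 2.25 kb upstream of an annotated start.

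By the authors' scores in wt replicate 1, member peaks were close to the rest of the list. The median fold enrichment of the 34 peaks was 8.08 (95% order-statistic interval 6.77 to 10.1), against 7.48 for all 6814 peaks, and 19 of the 34 were above the list's median. The range ran from 4.60 at the Pbx3 promoter to 19.8 at Zic2. Medians were 9.29 over 8 ventral peaks, 11.3 over 4 eye or midline peaks, 7.12 over 18 broad peaks and 6.47 over 4 dorsal peaks, with ranges that overlapped. Of the eye or midline peaks, 2 (19.8 and 13.5-fold) lay in the same Zic2 promoter region. Medians and the interval count each peak separately, also peaks of the same region, as at Zic2 and Meis1. Among the 45 other homeobox and partner genes, the strongest peaks were those of Pou3f2 (25.9-fold), Lmo1 (16.4), Pknox1 (15.3), Lmo4 (13.2) and Lmo3 (12.1).

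**Figure D4:**
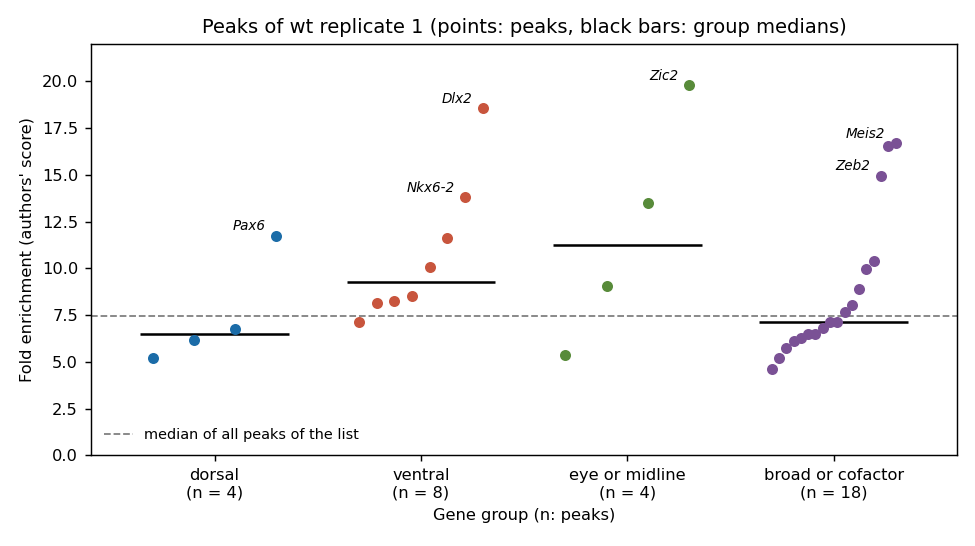
Fold enrichment (vertical axis, the authors' score, wt replicate 1) of the 34 member peaks (points) by group, with group medians as black bars and the median of all 6814 peaks, 7.48, as a dashed line. Points run from 4.60 to 19.8, and those of Zic2, Dlx2 and Meis2 are the highest.

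Most member regions that wt lists shared were listed in both knockout lists. Both of these lists were longer than those of wt replicates 1 and 2. Which splice form a site needs was not tested. Of the 60 member wt consensus regions, 58 were listed in E12KO (96.7%; the 95% Wilson interval, for counting error alone, was 88.6 to 99.1), against 96.6% of all 12322 wt consensus regions. In E47KO 57 were listed (95%, 86.3 to 98.3), against 93.5%. Both knockouts held 56 of the 60. All 22 member regions in all 3 wt lists had a peak in both knockouts (100%, 85.1 to 100), against 98.2% of 4228. The 4 regions missing from a knockout were those of Isl1, Lhx9, Lhx5 and Zeb2 (chr2:45591610-45592138, missing in E47KO), and each was in only 2 wt lists. These shares are near the background, and since each knockout is a single library the genotypes were not tested against each other.

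In 2 of 3 comparisons, a held-out wt list lacked more of the member regions than either knockout list did, and the other regions showed the same order. Of 55 member regions shared by wt replicates 2 and 3, 22 had a peak in wt replicate 1 (40.0%, 28.1 to 53.2), while 54 (98.2%) had one in E12KO and 53 (96.4%) in E47KO. Of the other regions, 38.4%, 98.2% and 96.0% had one. Of 27 shared by wt replicates 1 and 3, 22 (81.5%) had a peak in wt replicate 2, and 26 (96.3%) in each knockout, against 77.0%, 95.9% and 92.6% of other regions. The 22 shared by wt replicates 1 and 2 had a peak in wt replicate 3 and both knockouts, against 98.9%, 99.3% and 97.9% of other regions. Wt replicate 1, the shortest list, was the one missing from 33 of the 38 member regions found in exactly 2 wt lists, and wt replicate 2 from the other 5.

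**Figure D5:**
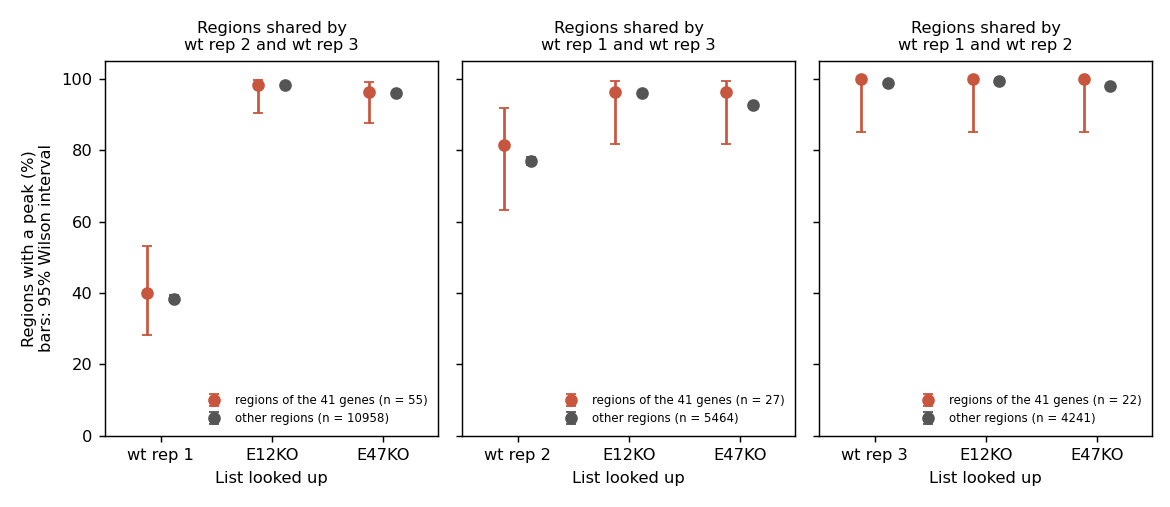
Share of regions shared by 2 wt lists (panel titles) that also had a peak in the third wt list or a knockout (horizontal axis), for regions of the 41 genes and all others, with 95% Wilson intervals. Only 40.0% of the member regions of the left panel were in wt replicate 1, whereas each knockout list held at least 96.3% of member regions in every panel.

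Over all 159 member regions, 22 were in all 5 lists (13.8%, against 12.7% of other regions) and 45 in 1 list only (28.3%, against 28.4%). Of the 22, 16 lay beyond 10 kb of the start site. By group, the 22 were 7 of 21 ventral (33.3%) and 12 of 85 broad regions (14.1%). The rest were 2 of 35 dorsal (5.71%) and 1 of 18 eye or midline regions (5.56%). In 1 list only were 14.3% of ventral, 25.7% of dorsal, 27.1% of broad and 55.6% of eye or midline regions. In a wt list and no knockout there were 19 (11.9%, against 14.2%). In both knockouts and no wt list there were 3 (1.89%, against 4.42%), at Nkx6-2, Pbx3 and Zeb2. Promoter regions numbered 26 over 19 members. Of these regions, 4 were in all 5 lists, 2 of them at Cux1 and 1 each at Meis2 and Zic5, and 7 were in 1 list only. The counts of promoter regions and of shared regions beyond 10 kb have no background share beside them. Pooled over the groups, sharing of member regions between lists was thus close to that of other regions. The groups differed in it, with few regions each, and were not tested against each other.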

How the data were processed

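E2A ChIP-seq peaks were analysed from 5 lists, 1 per library. The genome build was mm9 and the tools were MACS2 2.1.0, Picard 1.119 and BWA 0.7.13, per the submitters' processing notes; settings were not given there. Per the labels, cells were fixed with EGS and formaldehyde. Lists were deposited per library. Per the file headers, each gives a peak's position, annotation, nearest gene and distance to the start site. The deposited table of wt replicate 1, alone of the 5, gives −log10 p and −log10 q, fold enrichment (a ratio) and pileup signal, as the authors' peak caller gave them. The lowest −log10 q there was 2.07, while the other lists carry no score to check a threshold. Wt replicate 1 measures distance to another peak edge than the other tables, so a region's distance was taken from wt replicate 3, then E12KO, E47KO, wt replicate 2 and wt replicate 1.

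Python 3.11.15 and pandas 2.3.3 were used. Peaks overlapping by at least 1 bp were merged, and a list held a region if any of its peaks overlapped it. The code was tested on planted intervals. All 41 names matched a RefSeq gene table (GRCm38.p6, 21900 protein-coding genes), used for names and neighbours only; promoter sequences are RefSeq's, of the same build. No promoter sequence was used for Otx1, Lhx5, Dlx5, Dlx6, Rax, Vax2, Zic2, Pbx3, Zeb1 or Pou3f1. Shares have 95% Wilson intervals. No p-values are given: genes are not replicates and each knockout has 1 library. Members, groups and lists were chosen with earlier results of these data known. Named with their peaks were the 10 members with the strongest wt replicate 1 peak by −log10 q, those with a promoter peak in all 5 lists and those with none; regions of other members are described because all members are accounted for. Of the other homeobox and partner genes, those with the strongest wt replicate 1 peak were named, and the value of 1 gene under that rule is not reported here. Alternatives were other consensus rules, overlap, width, score and distance limits, other groups and leaving out each wt list.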

Additional observations from a re-analysis of the deposited data

How the results depend on the processing

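Results were recomputed under other rules, and 62 values stayed within the set limits (1.5 times for a count), while 18 did not. With regions required in all 3 wt lists, members with a consensus region numbered 13, those within 10 kb 4, dorsal members 2 and eye or midline members 1, and the shares in E12KO and E47KO were 100% and 100%. Leaving out each wt list in turn gave 13 to 22 members with a consensus region and 4 to 8 within 10 kb. Dorsal members numbered 2 to 9 and eye or midline members 1 to 2, and shares were 96.3% to 100% in E12KO and in E47KO. The lowest counts came without wt replicate 3, the longest wt list. The rule itself lowers these counts, since both lists that are left must hold a region. Shares of protein-coding genes under these rules are not given beside them. Members within the distance limit numbered 18 at 50 kb and 7 at 2 kb, also without the share of protein-coding genes at these limits. With Otx1 and Otx2 counted as eye genes, Vax1 as ventral, and Lhx1 and Lmx1b left out, 5 of 7 dorsal and 5 of 10 eye or midline members had one. No paired analysis was possible because each knockout has 1 library. List length, and with it depth or threshold, limits every count of absent peaks.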
